A study of Homo sapiens with 34 samples.

Results

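The results concern 7 genes, 4 of them DNA mismatch repair genes (MSH3, MSH6, PMS1 and PMS2) and 3 of them tumour suppressors that are often deleted or mutated in prostate cancer (RB1, CHD1 and SPOP). They were taken by symbol from a count table of 26336 rows, each symbol matched 1 row, and all 7 passed every filter on low counts, with 295 to 4296 reads per library. RNA was sequenced after polyA selection from 4 cultured prostate epithelial lines in 34 libraries that form 17 groups of 1 to 3. RWPE is labelled as non-tumorigenic epithelium, LNCaP as a lymph node metastasis, and VCaP and MDAPCa2a as bone metastases, and the labels name no engineered allele in any of them. Each group grew on plastic or on a coating of amorphous calcium phosphate (ACP), a mineral surface, in the line's own control medium, in medium with charcoal-stripped serum, or in stripped medium with androgen labelled at 100 mM, a name given as testosterone in one label and DHT in another.

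Every line was present on plastic in control medium and on ACP with androgen. RWPE, LNCaP and VCaP shared control medium on ACP, and LNCaP, VCaP and MDAPCa2a shared stripped medium on plastic and on ACP. RWPE on ACP with androgen has 3 libraries, VCaP on plastic in stripped medium 1, and each other group 2. RWPE was kept in a serum-free keratinocyte medium with EGF and pituitary extract, while the tumour lines had fetal bovine serum in 3 different base media, so line and medium cannot be told apart in any comparison of lines. The plastic control libraries are labelled as continuous culture and the others as day 4, and MDAPCa2a plastic, but not ACP, carried an attachment coating. Nothing states that replicates came from separate cultures, so p-values measure the spread between these libraries, which may be technical, and in bulk RNA fewer expressing cells and less RNA per cell cannot be told apart.

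Libraries held 15440141 to 44779246 counted reads, and replicates of a group correlated at r = 0.983 to 0.998 across genes. The 8 plastic control libraries were among the deepest, at 34947115 to 44779246 reads, and overlapped the 15440141 to 37015516 reads of the others. The basal gene KRT5 was at 2348 to 10153 CPM (reads scaled to a common library total) in RWPE and at most 13 CPM elsewhere. KLK3, which encodes prostate-specific antigen, was at 36.1 CPM or more in every tumour library and at most 19.1 CPM in RWPE, and the ETS factor ERG was at 126 CPM or more only in the VCaP libraries. Summed leukocyte markers (PTPRC, CD74 and CD3E) were at 4.69 to 17 CPM in the plastic control libraries and 0 to 4.56 CPM in the others, with PTPRC itself at no more than 0.175 CPM anywhere. Summed fibroblast markers reached 31.6 CPM and summed liver markers 322 CPM, the latter in VCaP, where ALB was at 15.3 to 322 CPM. Whether these transcripts have a part in the results was not tested.

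Mismatch repair removes bases and small loops that escape proofreading during replication. MutS proteins recognise the error, MSH6 mainly in base mispairs and short loops and MSH3 in larger loops, and MutL proteins act after them, PMS2 as the endonuclease subunit that nicks the faulty strand and PMS1 in a complex whose role is less clear. RB1 is the pocket protein that holds back E2F transcription factors, CHD1 is a chromatin remodeller that binds the methylated histone H3 of active start sites, and SPOP selects substrates for the CUL3 ubiquitin ligase. In prostate tumours CHD1 is known for deletions, SPOP for point mutations and RB1 for loss in advanced disease. Point mutations need not change the amount of RNA, and counts of reads do not show them.

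The stretches before the starts of CHD1 and PMS2 are shown because both genes set LNCaP apart in every condition, and the PMS2 stretch holds letters that E2F factors are known to bind. They are RefSeq sequences of GRCh38.p14, read 5′ to 3′ along the gene, and capitals mark E2F letters (TTTCCCGC, TTTGGCGC, TTTCGCGC or TTTGCCGC, on both strands) and GC boxes (GGGCGG, on both strands). The CHD1 stretch is chr5:98929008-98929170 on the minus strand and the PMS2 stretch is chr7:6009126-6009244 on the minus strand, both before the outermost start and with no annotated exon.
CHD1: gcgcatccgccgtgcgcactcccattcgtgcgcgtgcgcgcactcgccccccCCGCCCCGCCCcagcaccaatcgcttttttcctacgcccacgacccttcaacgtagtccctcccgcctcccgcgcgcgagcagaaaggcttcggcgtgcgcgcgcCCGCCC
PMS2: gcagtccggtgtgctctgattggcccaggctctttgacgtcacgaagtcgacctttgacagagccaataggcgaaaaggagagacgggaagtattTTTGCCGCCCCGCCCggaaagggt
In windows from 250 bases before to 50 bases after a gene's outermost start, matched for 6 of the 7 genes, PMS2 held TTTGCCGC at 43 bases before the start, overlapping a GC box, and the windows of MSH3 and MSH6 also held E2F letters. CHD1 had GC boxes and none of the E2F letters. Of 24882 such windows, 3.32% held E2F letters and 43.9% a GC box. A match is a description of letters, not evidence of binding.

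Every gene was transcribed in every line, and none met the rule set for a loss, a group mean under 25% of the next lowest line in the same condition. The gene closest to it was CHD1 in LNCaP, at 37.2% of the next lowest line on ACP with androgen and 49.5% on plastic in control medium. Over all 17323 genes tested, 16.4% had such a loss on plastic in control medium and 22.1% on ACP in control medium. The ratio of the highest to the lowest line on plastic in control medium was 1.57 for PMS1, 1.57 for SPOP, 1.75 for RB1, 2.16 for MSH3, 2.43 for MSH6, 2.98 for CHD1 and 3.00 for PMS2, and the median over all genes was 3.88. All 7 thus varied less between lines than the median gene there, as they did on ACP in control medium (median 3.25). In the other conditions some varied more, with PMS2 at 3.33 on plastic in stripped medium (median 2.77), MSH6 at 2.93, PMS1 at 2.96 and PMS2 at 2.84 on ACP in stripped medium (median 2.71), and PMS1 at 4.96 on ACP with androgen (median 4.66). The medians and loss shares cover all tested genes, also those with few reads. Whether genes at the level of these 7 vary as much was not tested.

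**Figure D1:**
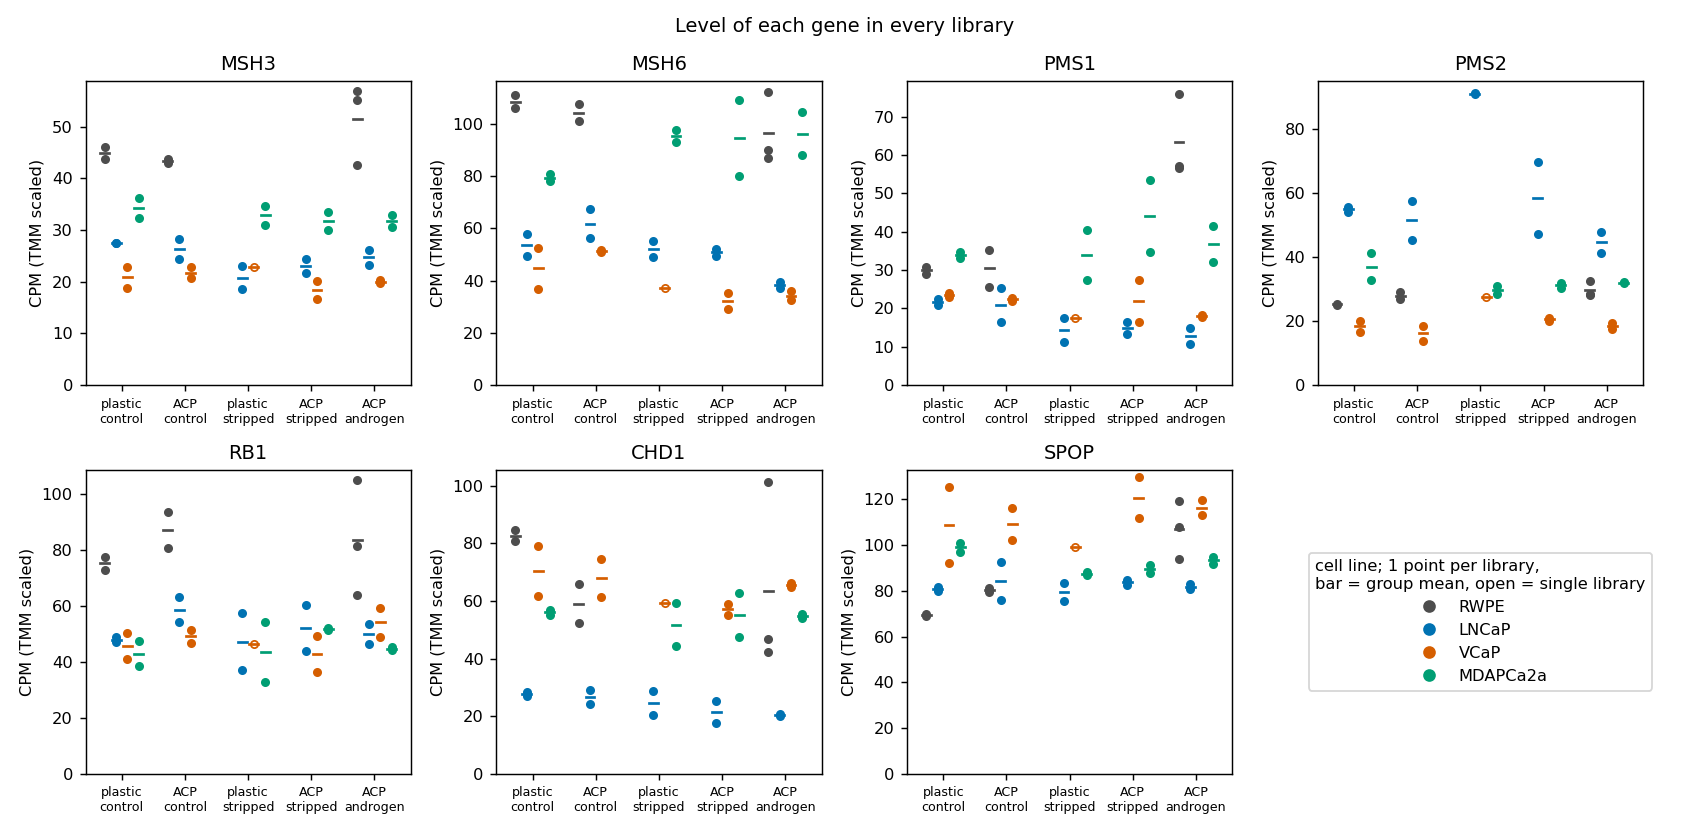
CPM of the 7 genes in each of the 34 libraries, by condition on the horizontal axis and by line in colour, with 1 point per library. LNCaP lies lowest for CHD1 (17.6 to 29.2 CPM) and highest for PMS2 (41.4 to 91.2 CPM), and RWPE lies highest for RB1 (64.0 to 105 CPM).

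Differences between lines were tested with edgeR's quasi-likelihood test, adjusted by Benjamini-Hochberg over all genes tested, and a difference is called where the adjusted p is below 0.05. In control medium on plastic, 24 of 42 tests of these genes passed, 11 higher and 13 lower in the first-named line, where 53.6% of all tests passed. On ACP in control medium 13 of 21 passed against 57.7% of all, on plastic in stripped medium 10 of 21 against 45.4%, on ACP in stripped medium 14 of 21 against 50.0%, and on ACP with androgen 26 of 42 against 58.5%. What follows describes which line each gene set apart. A line was called lower than every other line of its condition in 11 of 119 possible cases, against 10.9% over all genes, and higher in 21 of 119, against 12.0%. Comparisons within 1 condition share libraries, and those in different conditions do not.

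CHD1 was lower in LNCaP than in every other line in every condition. In control medium on plastic CHD1 was at 28.4 and 27.1 CPM in LNCaP, 80.6 and 84.5 CPM in RWPE, 61.7 and 79.2 CPM in VCaP, and 56.9 and 55.2 CPM in MDAPCa2a. On ACP in control medium it was at 29.2 and 24.3 CPM in LNCaP, 52.2 and 65.8 CPM in RWPE, and 61.5 and 74.6 CPM in VCaP. The highest LNCaP library, at 29.2 CPM, lay below the lowest library of any other line, at 42.4 CPM.

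In stripped medium the LNCaP values of CHD1 were 20.3 and 28.7 CPM on plastic and 17.6 and 25.1 CPM on ACP. VCaP had 59.2 CPM in its 1 library on plastic and 55.2 and 58.8 CPM on ACP, and MDAPCa2a had 44.2 and 59.1 CPM on plastic and 47.4 and 62.8 CPM on ACP. On ACP with androgen CHD1 was at 20.7 and 20.1 CPM in LNCaP, 46.7, 42.4 and 101 CPM in RWPE, 66.0 and 64.9 CPM in VCaP, and 54.0 and 55.6 CPM in MDAPCa2a. The third RWPE library stood apart from the other 2, and the groups of LNCaP and every other line did not overlap.

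All 12 CHD1 tests that involved LNCaP passed, with log2 differences of LNCaP minus the other line from -1.68 to -1.01. The largest was against VCaP on ACP with androgen, where VCaP was 3.21-fold higher (log2 difference 1.68 ± 0.29 (SE), adjusted p = 2.91e-05). Against RWPE the log2 differences of LNCaP were -1.57 ± 0.29 (adjusted p = 5.09e-05) on plastic in control medium, -1.14 ± 0.29 (adjusted p = 0.00157) on ACP in control medium, and -1.64 ± 0.28 (adjusted p = 1.19e-05) on ACP with androgen. Without RWPE replicate 3 the last was -1.02 (adjusted p = 0.000142). Of all genes tested, 2.7% were lower in LNCaP than in every other line in all 5 conditions. Of the 12 calls, 1, against MDAPCa2a on plastic in stripped medium (log2 difference 1.08, adjusted p = 0.00361), ended without LNCaP replicate 1 (0.85, adjusted p = 0.0745) or MDAPCa2a replicate 2 (0.86, adjusted p = 0.0558).

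Among the other 3 lines no CHD1 difference passed in 9 tests with edgeR, none passed at 0.05 before adjustment, and 1 passed with DESeq2. That call was MDAPCa2a against RWPE on plastic in control medium, at a log2 difference of -0.56 with a 95% interval of -1.14 to 0.02 (edgeR adjusted p = 0.0952), which passed at -0.59 (adjusted p = 0.00308) in a fit of the plastic control libraries alone and at -0.56 (adjusted p = 0.0108) with the replicate number as a block. MDAPCa2a minus VCaP on plastic in control medium was -0.33 (adjusted p = 0.341), and -0.36 (adjusted p = 0.0325) in the fit of those libraries alone. Without RWPE replicate 3 on ACP with androgen, VCaP was above RWPE by 0.65 (adjusted p = 0.00769), where all 3 RWPE libraries gave 0.04 with an interval of -0.49 to 0.57, and the replicate block 0.55 (adjusted p = 0.0104). The calls among VCaP, RWPE and MDAPCa2a thus depended on the fit and on single libraries.

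PMS2, the nicking subunit, set LNCaP apart in the other direction, with LNCaP highest and VCaP lowest in mean in every condition. On plastic in control medium PMS2 was at 54.1 and 55.7 CPM in LNCaP, 41.2 and 32.7 CPM in MDAPCa2a, 25.3 and 25.1 CPM in RWPE, and 16.6 and 20.1 CPM in VCaP. The 4 lines did not overlap there. On ACP in control medium it was at 45.5 and 57.6 CPM in LNCaP, 29 and 26.8 CPM in RWPE, and 13.9 and 18.5 CPM in VCaP.

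The widest gap of PMS2 was on plastic in stripped medium, with 91.2 and 91.1 CPM in LNCaP, 28.4 and 31.1 CPM in MDAPCa2a and 27.4 CPM in the 1 VCaP library. On ACP in stripped medium LNCaP had 47.1 and 69.7 CPM, MDAPCa2a 30.4 and 32.1 CPM, and VCaP 20.0 and 21.1 CPM. On ACP with androgen LNCaP had 41.4 and 48.0 CPM, MDAPCa2a 32.2 and 31.9 CPM, RWPE 28.1, 28.6 and 32.6 CPM, and VCaP 19.5 and 17.6 CPM. LNCaP did not overlap with any other line in any of the 5 conditions.

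All 12 PMS2 tests that involved LNCaP passed, with LNCaP above the other line by log2 differences of 0.48 to 1.73. Against RWPE these were 1.12 ± 0.18 (SE, adjusted p = 1.2e-05) on plastic in control medium and 0.89 ± 0.18 (adjusted p = 0.000231) on ACP in control medium. VCaP was below LNCaP by more than 1 on the log2 scale in each condition, for example at -1.73 (adjusted p = 2.51e-06) on plastic in stripped medium, with VCaP's spread taken from the other groups. VCaP was also called below every other line in 4 of its 5 conditions (on plastic in stripped medium MDAPCa2a minus VCaP was 0.12, adjusted p = 0.702), for example against RWPE by -0.79 ± 0.19 (adjusted p = 0.00079) on ACP in control medium. Of all genes, 2.64% were higher in LNCaP than in every other line in all 5 conditions.

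Some PMS2 calls rested on 1 library. The difference from MDAPCa2a on plastic in control medium (-0.57, adjusted p = 0.0142, MDAPCa2a minus LNCaP) ended without LNCaP replicate 2 (adjusted p = 0.0687) or MDAPCa2a replicate 2 (adjusted p = 0.175). The one on ACP with androgen (-0.48, adjusted p = 0.0354) ended without LNCaP replicate 2 (adjusted p = 0.206) or either MDAPCa2a library (adjusted p = 0.11 and 0.123), and that from RWPE there (0.59, adjusted p = 0.00324) ended without LNCaP replicate 2 (0.48, adjusted p = 0.0528). VCaP against RWPE on plastic in control medium (-0.46, adjusted p = 0.0329) ended without VCaP replicate 1 (-0.33, adjusted p = 0.224) or either RWPE library (adjusted p = 0.0699 and 0.0899), and MDAPCa2a minus VCaP on ACP in stripped medium (0.60, adjusted p = 0.00963) without MDAPCa2a replicate 2 (adjusted p = 0.0502).

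PMS2 has many near-identical copies, so its counts depend on how reads with several matching places were treated, which is not given in the sources used here. Of the 2806 runs of 50 bases in its GENCODE 29 transcript, 34.1% also occur in transcripts of 18 other genes, chiefly PMS2CL and PMS2P1. The 8 rows of PMS2-like pseudogenes summed to group means of 39.3 to 44.1 CPM in VCaP, 26.1 to 35.7 CPM in LNCaP, 21.1 to 29.7 CPM in RWPE and 20.5 to 22.5 CPM in MDAPCa2a. VCaP, lowest for PMS2, was thus highest for the copies. On plastic in control medium PMS2CL, which shares 809 of the runs, gave VCaP differences of 0.17 (adjusted p = 0.643) from RWPE and 0.01 (adjusted p = 0.988) from LNCaP. PMS2P1, which shares 111, was higher in VCaP than in RWPE by 1.28 (adjusted p = 2.56e-05) and than in LNCaP by 0.94 (adjusted p = 0.000976). Whether reads passed between PMS2 and its copies was not tested. No run of 50 bases of CHD1, RB1 or PMS1 occurs in another gene's transcript.

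**Figure D2:**
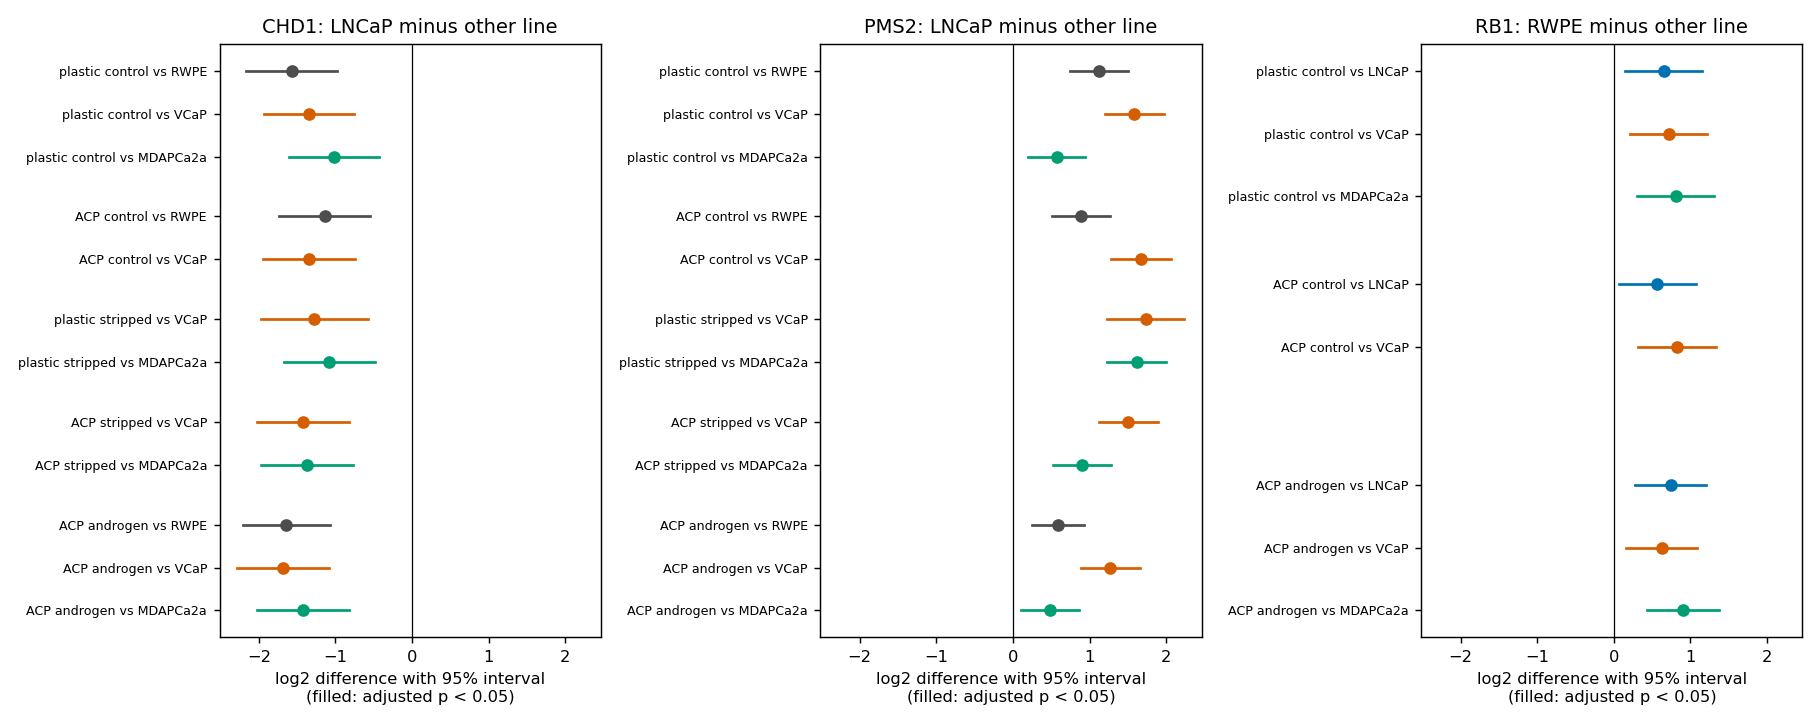
Log2 differences with 95% intervals of CHD1 in LNCaP, PMS2 in LNCaP and RB1 in RWPE, each minus every other line, by condition, with filled points where the adjusted p was below 0.05. All 12 CHD1 values lie below 0, from -1.68 to -1.01, all 12 PMS2 values lie above 0, from 0.48 to 1.73, and the 8 RB1 values run from 0.57 to 0.90.

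For PMS1, the other MutL gene among the 7, 0 of 9 tests between lines passed in control medium on the 2 surfaces with edgeR, 1 passed at 0.05 before adjustment, and 0 passed with DESeq2. On plastic in control medium its CPM were 30.8 and 29 in RWPE, 20.8 and 22.5 in LNCaP, 24.1 and 23 in VCaP, and 33.2 and 34.8 in MDAPCa2a. A fit of those 8 libraries alone, with its own estimate of the spread, called 4 of the 6 pairs, for example MDAPCa2a above LNCaP by 0.61 (adjusted p = 0.00248), as did a fit with no filter on low counts for that pair (0.66, adjusted p = 0.0437). Without LNCaP replicate 1 on ACP, LNCaP was below RWPE there by -0.88 (adjusted p = 0.0352).

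PMS1 calls between lines were made in the other media, though LNCaP and VCaP did not pass against each other in any (VCaP minus LNCaP 0.28, adjusted p = 0.535, on plastic in stripped medium, 0.56, adjusted p = 0.0912, on ACP in stripped medium, and 0.49, adjusted p = 0.14, on ACP with androgen). On ACP with androgen PMS1 was at 76.0, 56.6 and 57.2 CPM in RWPE, 41.4 and 32.0 CPM in MDAPCa2a, 17.7 and 18.2 CPM in VCaP, and 10.6 and 14.9 CPM in LNCaP, with no overlap between lines. RWPE was above LNCaP 4.96-fold in mean CPM there, the widest span of any of the 7 genes in any condition (LNCaP minus RWPE log2 -2.31 ± 0.27, adjusted p = 7.2e-08). VCaP minus RWPE was -1.82 ± 0.27 (adjusted p = 2.03e-06). MDAPCa2a minus RWPE was -0.79 ± 0.26 (adjusted p = 0.00957), a call that ended without RWPE replicate 1 (adjusted p = 0.0951) or MDAPCa2a replicate 2 (adjusted p = 0.122).

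In stripped medium MDAPCa2a was above both other lines for PMS1. Its values were 27.3 and 40.5 CPM on plastic and 53.5 and 34.7 CPM on ACP, against 11.3 and 17.5 CPM and 13.3 and 16.5 CPM in LNCaP. VCaP had 17.4 CPM in its 1 library on plastic, whose spread is taken from the other groups, and 16.3 and 27.5 CPM on ACP. The log2 differences from LNCaP were 1.24 ± 0.28 (adjusted p = 0.000876) on plastic and 1.57 ± 0.28 (adjusted p = 7.08e-05) on ACP. Those from VCaP were 0.96 ± 0.35 (adjusted p = 0.0294) on plastic, lost without MDAPCa2a replicate 2 (adjusted p = 0.186) or with DESeq2 (adjusted p = 0.0543), and 1.01 ± 0.28 (adjusted p = 0.00433) on ACP, lost without VCaP replicate 1 (adjusted p = 0.0805) or MDAPCa2a replicate 1 (adjusted p = 0.101).

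In mean CPM the MutS genes MSH6 and MSH3 were highest in RWPE and lowest in VCaP in each condition that held both lines. MSH6 on plastic in control medium was at 111 and 106 CPM in RWPE, 80.6 and 78.1 CPM in MDAPCa2a, 49.5 and 58.0 CPM in LNCaP, and 36.8 and 52.6 CPM in VCaP. On ACP with androgen it was at 86.8, 90.0 and 112 CPM in RWPE, 88.0 and 104 CPM in MDAPCa2a, 37.1 and 39.4 CPM in LNCaP, and 32.5 and 35.8 CPM in VCaP. RWPE and MDAPCa2a overlapped with androgen, and both lay above LNCaP and VCaP in each condition they shared.

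LNCaP minus RWPE for MSH6 was -1.01 ± 0.18 (SE, adjusted p = 3.42e-05) on plastic in control medium and -1.33 (adjusted p = 2.43e-07) on ACP with androgen. VCaP minus RWPE was -1.28 ± 0.18 (adjusted p = 1.31e-06) and -1.5 (adjusted p = 4.48e-08) in the same conditions. In stripped medium on ACP, MDAPCa2a had 79.9 and 109 CPM, LNCaP 49.4 and 52.2 CPM, and VCaP 35.2 and 29.3 CPM, and MDAPCa2a exceeded VCaP by 1.55 ± 0.18 (adjusted p = 1.8e-07). LNCaP and VCaP differed there too (VCaP minus LNCaP -0.66 ± 0.18, adjusted p = 0.00339), a call lost without VCaP replicate 2 (-0.53, adjusted p = 0.0534). It passed in no other condition with all libraries, and on plastic in control medium without VCaP replicate 2 (-0.55, adjusted p = 0.036).

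MDAPCa2a minus RWPE for MSH6 was -0.45 (adjusted p = 0.0343) on plastic in control medium, a call lost without any 1 of the 4 libraries (adjusted p = 0.0747 to 0.129), and 0.00 on ACP with androgen. MDAPCa2a minus LNCaP on plastic in control medium (0.56, adjusted p = 0.014) ended without LNCaP replicate 1 (0.45, adjusted p = 0.14) or MDAPCa2a replicate 1 (0.54, adjusted p = 0.07). In the MSH6 transcript, 21.6% of the runs of 50 bases also lie in transcripts of FBXO11, the neighbouring gene, so some MSH6 reads may have been counted for either gene or for neither. FBXO11 itself had another order, lowest in LNCaP in 5 of 5 conditions (31.2 CPM against 58.1 CPM in RWPE, 66.6 CPM in VCaP and 71.6 CPM in MDAPCa2a on plastic in control medium). KCNK12, the nearest gene reported on the other side, was also called lower in LNCaP than in every other line in 5 of 5 conditions. Further out, FOXN2 was so in 4 of 5, PPP1R21 in 2 of 5 and EPCAM in 1 of 5. Of all genes, 2.7% were so in all 5 conditions.

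MSH3 spanned less. It ranged over 42.6 to 56.8 CPM in RWPE, 30.0 to 36.2 CPM in MDAPCa2a, 18.5 to 28.2 CPM in LNCaP and 16.6 to 22.9 CPM in VCaP, over all libraries of each line. RWPE did not overlap with any other line, MDAPCa2a did not overlap with the other tumour lines, and LNCaP and VCaP overlapped. LNCaP minus RWPE was -0.71 ± 0.17 (SE, adjusted p = 0.000868) on plastic in control medium and -1.06 ± 0.16 (adjusted p = 2.64e-06) on ACP with androgen, and VCaP minus RWPE was -1.11 (adjusted p = 4.12e-06) and -1.36 ± 0.16 (adjusted p = 7.16e-08).

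Of the 5 MSH3 tests between LNCaP and VCaP, the one on plastic in control medium passed (VCaP minus LNCaP -0.40, adjusted p = 0.0496) and was lost with DESeq2 (adjusted p = 0.103), with another scaling (adjusted p = 0.126) and without LNCaP replicate 1 or 2 or VCaP replicate 1 (adjusted p = 0.135, 0.13 and 0.314). MDAPCa2a minus RWPE was -0.39 ± 0.17 (adjusted p = 0.05, not passing) on plastic in control medium and -0.70 (adjusted p = 0.000419) with androgen. The first passed with another scaling (-0.48, adjusted p = 0.0169), with DESeq2 (-0.48, adjusted p = 0.00637), with the replicate block (-0.39, adjusted p = 0.0252) and in a fit of those libraries alone (-0.42, adjusted p = 0.0179). MDAPCa2a exceeded VCaP by 0.79 (adjusted p = 0.000492) on ACP in stripped medium and by 0.72 (adjusted p = 0.000985) on plastic in control medium. Of its runs of 50 bases, 8.04% occur in other genes' transcripts.

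RB1 was highest in RWPE in all 3 conditions that held RWPE, and no difference between tumour lines passed. On plastic in control medium RB1 was at 77.5 and 72.9 CPM in RWPE, 48.9 and 46.9 CPM in LNCaP, 41.1 and 50.3 CPM in VCaP, and 47.4 and 38.5 CPM in MDAPCa2a. On ACP in control medium it was at 80.6 and 93.4 CPM in RWPE, 54.3 and 63.1 CPM in LNCaP, and 46.8 and 51.4 CPM in VCaP. On ACP with androgen it was at 64.0, 81.4 and 105 CPM in RWPE, 46.3 and 53.4 CPM in LNCaP, 59.3 and 48.9 CPM in VCaP, and 44.2 and 45.2 CPM in MDAPCa2a. RWPE did not overlap with a tumour line, and the tumour lines overlapped in 9 of 13 pairs of groups.

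All 8 RB1 tests that involved RWPE passed, with RWPE above by 0.57 to 0.90 on the log2 scale. Of all genes, 9.99% were higher in RWPE than in every other line in all 3 conditions. Of the 8 calls, 6 ended when 1 library was left out. The 2 that stayed were VCaP minus RWPE on ACP in control medium (-0.83 ± 0.24, adjusted p = 0.005) and MDAPCa2a minus RWPE on ACP with androgen (-0.90 ± 0.23, adjusted p = 0.00132).

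LNCaP minus RWPE for RB1 was -0.65 ± 0.24 (adjusted p = 0.0246) on plastic in control medium and -0.57 ± 0.24 (adjusted p = 0.0488) on ACP in control medium, and leaving out any 1 of the 4 libraries ended each (adjusted p = 0.0563 to 0.104 and 0.0712 to 0.218). On ACP with androgen the LNCaP difference of -0.74 (adjusted p = 0.00559) ended without RWPE replicate 3 (-0.44, adjusted p = 0.0963) or LNCaP replicate 1 (adjusted p = 0.0634). The VCaP difference there of -0.63 (adjusted p = 0.017) ended without RWPE replicate 2 (adjusted p = 0.0532), RWPE replicate 3 (-0.34, adjusted p = 0.205) or VCaP replicate 2 (-0.43, adjusted p = 0.22). On plastic in control medium VCaP minus RWPE (-0.72, adjusted p = 0.0126) ended without VCaP replicate 1 (adjusted p = 0.108), and MDAPCa2a minus RWPE (-0.81, adjusted p = 0.00645) without MDAPCa2a replicate 2 (adjusted p = 0.0789).

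Between tumour lines, 0 of 13 RB1 tests passed with edgeR, 0 passed at 0.05 before adjustment, and 0 passed with DESeq2. The largest difference was VCaP minus LNCaP on ACP in stripped medium, at -0.28 with a 95% interval of -0.79 to 0.22. A difference of that size was not detectable with these libraries.

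SPOP spanned 1.24-fold to 1.57-fold between the lines of a condition and was highest in mean in VCaP in all 5 conditions. It ranged over 92.2 to 130 CPM in VCaP, 86.7 to 101 CPM in MDAPCa2a, 75.6 to 92.8 CPM in LNCaP and 68.9 to 119 CPM in RWPE. These ranges overlap, and the 3 RWPE libraries with androgen, at 108, 119 and 93.8 CPM, lay above the 4 in control medium, at 68.9 to 81.4 CPM. VCaP minus RWPE was 0.65 ± 0.15 (SE, adjusted p = 0.000648) on plastic in control medium, and VCaP minus LNCaP was 0.51 ± 0.15 (adjusted p = 0.00625) on ACP with androgen.

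Of the 9 SPOP calls among 21 tests, 6 were lost when 1 library was left out. VCaP minus LNCaP on ACP in stripped medium (0.53 ± 0.15, adjusted p = 0.00447) was lost without VCaP replicate 1 (adjusted p = 0.0662). MDAPCa2a minus RWPE on plastic in control medium (0.51 ± 0.15, adjusted p = 0.00545) was among the 3 that were kept.

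Within the tumour lines no difference with surface, stripping or androgen passed for the 7 genes. Androgen medium against stripped medium on ACP, tested within each tumour line, gave 0 calls in 21 tests (DESeq2 also 0, and 1 with an unadjusted p below 0.05), where 8.79% of all genes' tests passed. ACP against plastic in stripped medium gave 0 of 21 (DESeq2 1, and 1 with an unadjusted p below 0.05) against 2.05%, and stripped against control medium on ACP gave 0 of 14 (DESeq2 0, and 1 with an unadjusted p below 0.05) against 3.02%. These shares pool lines that differed. With androgen, 1133 genes passed in LNCaP, 2727 in VCaP and 0 in MDAPCa2a. With surface, 897 passed in LNCaP and 1 in MDAPCa2a, and VCaP had 1 plastic library. Where almost no gene passed, the 7 genes could hardly pass either, so nothing is concluded from them there. Among the 7 genes the closest was PMS2 in LNCaP, at 91.2 and 91.1 CPM on plastic and 47.1 and 69.7 CPM on ACP in stripped medium (ACP minus plastic log2 -0.61 ± 0.19, adjusted p = 0.0784, DESeq2 adjusted p = 0.0301).

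MSH6 followed in the other 2 families. In LNCaP on ACP it was at 49.4 and 52.2 CPM in stripped medium and 37.1 and 39.4 CPM with androgen (-0.42 ± 0.16, adjusted p = 0.138). In VCaP on ACP it was at 51.5 and 50.8 CPM in control medium and 35.2 and 29.3 CPM in stripped medium (-0.65 ± 0.22, adjusted p = 0.179), which passed in the fit of all 34 libraries (-0.67, adjusted p = 0.0292). Neither pair of groups overlapped.

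In RWPE, androgen medium against control medium on ACP gave 1 call in 7 tests, against 19.1% of all genes. PMS1 rose from 25.6 and 35.3 CPM to 76.0, 56.6 and 57.2 CPM (log2 1.07 ± 0.21, adjusted p = 0.017). The call ended without either control library (0.80, adjusted p = 0.275, and 1.35, adjusted p = 0.0913), as did all 2730 calls over the whole table. The SPOP difference was 0.43 (adjusted p = 0.0904), and 0.53 (adjusted p = 0.00536) without the third androgen library.

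Other genes of mismatch repair were taken from a list of 18 that act with the MutS and MutL proteins (excision, resynthesis and ligation genes, MLH3 and the meiotic MSH4 and MSH5). Against RWPE on plastic in control medium, 2 were higher and 7 lower in LNCaP, 4 higher and 5 lower in VCaP, and 1 higher and 11 lower in MDAPCa2a. Of all genes, 57.4%, 62.4% and 56.7% were called in these 3 comparisons, in either direction. The medians were -0.39, 0.07 and -0.89 on the log2 scale, where the medians of all genes were 0.01, 0.04 and 0.00. MLH3, another MutL gene, was higher in all 3 tumour lines (14.3 CPM in RWPE, 31.3 CPM in LNCaP with a log2 difference of 1.13 and adjusted p = 1.1e-05, 22.7 CPM in VCaP and 23.8 CPM in MDAPCa2a).

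RFC4, a subunit of the clamp loader that places PCNA on DNA, was lower in all 3 tumour lines, furthest in MDAPCa2a (14.7 CPM against 62.6 CPM in RWPE, log2 -2.09, adjusted p = 5.46e-06). LIG1, the ligase that seals the repaired strand, was lower in LNCaP (21.8 CPM against 55.7 CPM, log2 -1.36, adjusted p = 0.00111). In LNCaP with androgen against stripped medium on ACP, 6 of the 17 genes tested fell and 0 rose (median log2 -0.68, all genes -0.01), where 7.73% of all genes were called. Of the 17, 0 passed without LNCaP stripped replicate 1 or 2 or androgen replicate 1, and 8 fell without androgen replicate 2. In VCaP in the same comparison 0 fell and 3 of 18 rose (median 0.52, all genes -0.03), where 17.5% of all genes were called, and 0 to 4 rose when 1 library was left out. In MDAPCa2a 0 of 17 passed (median 0.18), as did 0.00% of all genes.

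Genes of the RB1 pathway were read from 17 pocket protein and E2F genes and from 18 replication genes known as E2F targets. RBL1, the pocket protein p107, was lower in every tumour line than in RWPE on plastic in control medium (62.2 CPM in RWPE, 9.07 CPM in MDAPCa2a, 19.6 CPM in VCaP and 25.3 CPM in LNCaP). RBL2, the pocket protein of resting cells, was higher in LNCaP (140 CPM, log2 1.24, adjusted p = 2.4e-06) and MDAPCa2a (181 CPM, log2 1.62, adjusted p = 4.64e-08) than in RWPE (59.2 CPM), and was at 63.9 CPM in VCaP (log2 0.11, adjusted p = 0.613). Of the 17 genes, 2 were higher and 10 lower in LNCaP, 5 higher and 8 lower in VCaP, and 3 higher and 7 lower in MDAPCa2a, against RWPE in that condition (medians -0.58, 0.11 and -0.71), where 57.4%, 62.4% and 56.7% of all genes were called.

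The E2F targets gave calls with medium in LNCaP and VCaP, in comparisons where none of the 7 genes passed. With androgen against stripped medium on ACP, 12 of 18 fell in LNCaP (median log2 -1.15), 13 of 18 rose in VCaP (median 1.11), and 0 of 18 passed in MDAPCa2a (median 0.53), with medians of all genes between -0.03 and -0.01 and 7.73%, 17.5% and 0.00% of all genes called. These counts rested on single libraries. In LNCaP 0 passed without stripped replicate 1 or 2, 3 fell without androgen replicate 1 and 15 without androgen replicate 2, with medians from -1.54 to -0.81. In VCaP 0 passed without stripped replicate 1 or androgen replicate 2, 9 rose without stripped replicate 2 and 8 without androgen replicate 1, with medians from 0.89 to 1.37. With stripping on ACP, 10 of 18 fell in VCaP (median -1.66, all genes 0.08), where 0.820% of all genes were called. None of the 18 passed there, and no gene of the whole table, without either control library or without stripped replicate 1 (medians -1.77 to -1.57), and 11 fell without stripped replicate 2. The summed CPM of the 18 genes ran over group means of 1601 to 1770 in RWPE, 786 to 2101 in LNCaP, 764 to 3100 in VCaP and 542 to 850 in MDAPCa2a. MDAPCa2a had group mean sums of at most 850, with library sums of up to 1033 on plastic in stripped medium. Its MSH6 was at 78.1 to 109 CPM, above every VCaP and LNCaP library, so the lines were not ordered alike in MSH6 and in the E2F targets.

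**Figure D3:**
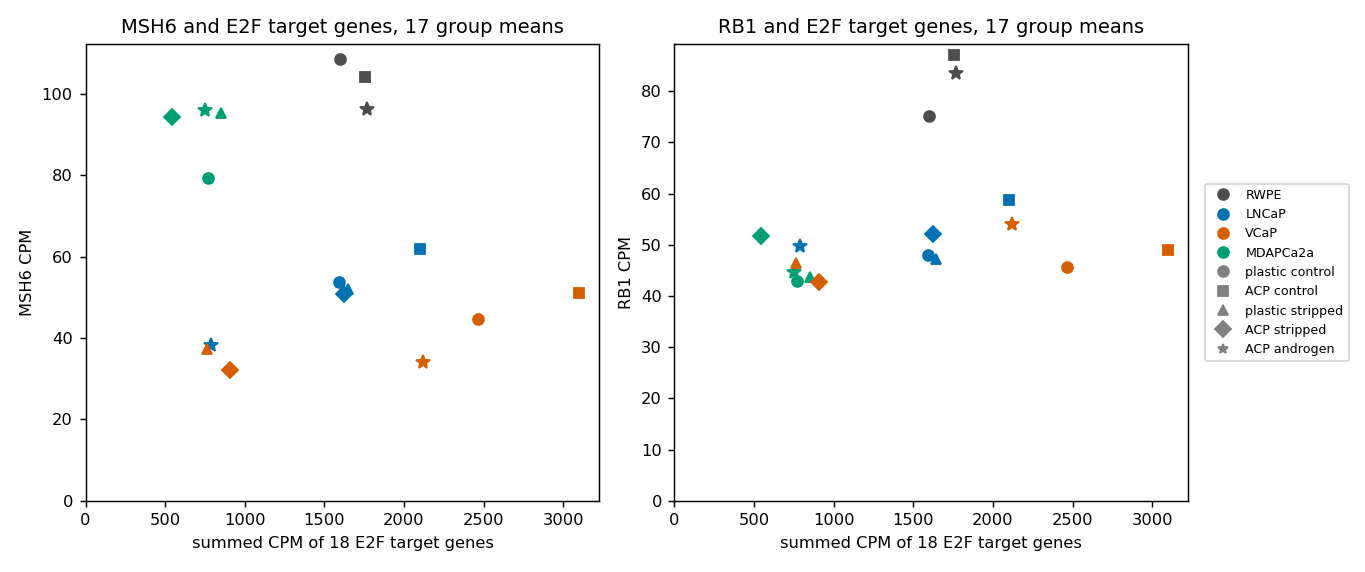
Group mean CPM of MSH6 and of RB1 (vertical axes) against the summed CPM of 18 E2F target genes (horizontal axis) in the 17 groups, coloured by line. The 4 MDAPCa2a groups have sums of 542 to 850 and MSH6 above every LNCaP and VCaP group, and RB1 in the tumour lines lies between 42.8 and 58.7 CPM over sums from 542 to 3100.

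Beside CHD1, the list of 15 CHD remodellers and elongation partners had 2 genes higher and 4 lower in LNCaP than in RWPE on plastic in control medium (median -0.21, all genes 0.01), against 57.4% of all genes called. CHD7 was at 13.3 CPM in LNCaP against 55.5 CPM in RWPE (log2 -2.06, adjusted p = 2.16e-05), and CHD2, the closest relative of CHD1, at 108 CPM against 229 CPM (-1.09, adjusted p = 0.00177). LEO1, of the PAF elongation complex, was higher in LNCaP (1.54, adjusted p = 1.03e-07). CHD2 was also lower than RWPE in VCaP (138 CPM, adjusted p = 0.0258) and MDAPCa2a (118 CPM, adjusted p = 0.00508), where CHD1 differences did not pass.

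Of the 12 CUL3 ligase genes that work with SPOP, 5 were higher and 1 lower in LNCaP than in RWPE on plastic in control medium, 3 higher and 3 lower in VCaP, and 4 higher and 1 lower in MDAPCa2a, against 57.4%, 62.4% and 56.7% of all genes called. UBA3, of the enzyme that activates NEDD8, was higher in all 3 (log2 1.52, 1.63 and 1.27). KLHL13, another substrate adaptor, was lower in VCaP (0.204 CPM against 4.90 CPM, log2 -4.59, adjusted p = 4.04e-11). SPOPL, the paralogue of SPOP, did not pass in any tumour line against RWPE in that condition (adjusted p = 0.143 to 0.666).

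The neighbours of CHD1 on the chromosome had another order. RGMB, the nearest protein-coding gene on one side of CHD1, was at 60.3 CPM in LNCaP and 25.2 CPM in RWPE on plastic in control medium (log2 1.26, adjusted p = 2.49e-06), and FAM174A, the nearest on the other side, was at 39.2 CPM and 24.2 CPM (0.70, adjusted p = 0.00202). Both neighbours were thus higher in LNCaP than in RWPE where CHD1 was lower. RGMB was called lower in RWPE than in every tumour line in 3 of 3 conditions, so its difference was not particular to LNCaP. FAM174A was called higher in LNCaP than in every other line in 4 of 5 conditions, but not on plastic in control medium. RIOK2, next after RGMB, was lower in LNCaP by 0.45 (adjusted p = 0.0365).

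AIMP2, which lies beside PMS2 on the opposite strand, was lowest in VCaP in 5 of 5 conditions. On plastic in control medium AIMP2 was at 31.9 CPM in VCaP, 78.2 CPM in RWPE, 84.7 CPM in LNCaP and 71.4 CPM in MDAPCa2a, and VCaP minus LNCaP was -1.41 (adjusted p = 2.78e-08). AIMP2 thus shared the low VCaP value with PMS2, while LNCaP minus RWPE was 0.12 (adjusted p = 0.521) for AIMP2 and 1.12 for PMS2. AIMP2 was called higher in LNCaP than in every other line in 2 of 5 conditions, both in stripped medium, where PMS2 was so in 5 of 5. Their starts lie 166 bases apart, and their windows share 265 bases, among them the E2F letters TTTGCCGC. Near MSH3, ZCCHC9 was higher in RWPE in 3 of 3 conditions, as MSH3 was in 2 of 3. Near RB1, the nearest genes were ITM2B on one side and LPAR6 on the other. LPAR6 was called lower in RWPE than in every tumour line in 2 of 3 conditions, where RB1 was higher in 3 of 3. ITM2B was called lower in LNCaP than in every other line in 1 of 5. MED4, next after ITM2B, was at 20.8 and 22.5 CPM in LNCaP against 38.9 and 39.2 CPM in RWPE (log2 -0.85, adjusted p = 0.000774). It did not pass in VCaP or MDAPCa2a.

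**Figure D4:**
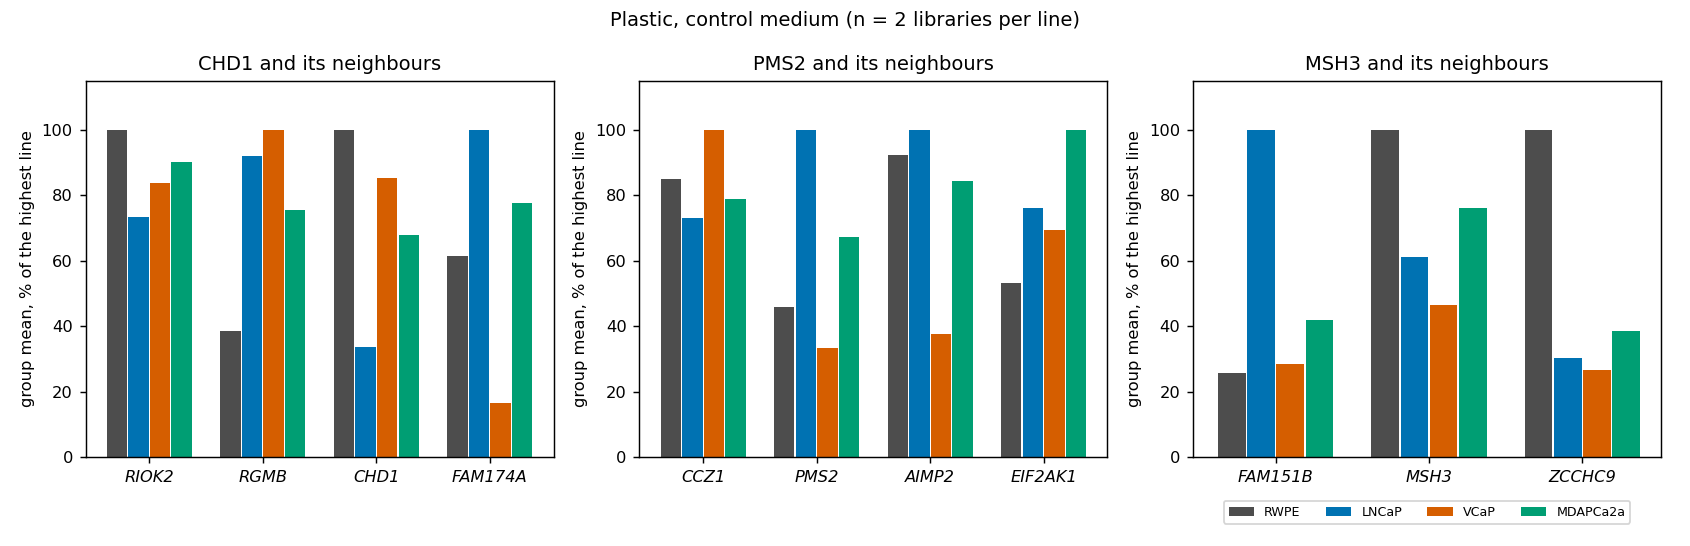
Group means of CHD1, PMS2 and MSH3 and of some of their protein-coding neighbours on plastic in control medium, as bars in percent of the line with the highest mean, starting at 0. CHD1 is lowest in LNCaP while RGMB and FAM174A are not, PMS2 and AIMP2 are both lowest in VCaP, and MSH3 and ZCCHC9 are both highest in RWPE.

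Over the 17 group means on the log2 scale, with groups that share lines, media and depth, MSH3 and MSH6 varied together (Pearson's r = 0.89), PMS1 went with both (r = 0.77 and 0.78), and PMS2 and CHD1 went opposite ways (r = -0.86). PMS2 and MSH3 showed no common pattern (r = 0.01). Of 11397 genes with a mean of at least 5 CPM, those most like CHD1 were ARAP3 and TMEM30B (both r = 0.98), and those most like PMS2 were JAK2 and EFNA3 (both r = 0.94). AGTPBP1 (r = 0.96) and SFN (r = 0.95) were most like MSH3, CCP110 (r = 0.97) and DCBLD1 (r = 0.96) most like MSH6, and ZNF518A and ZC3H8 (both r = 0.93) most like PMS1. XRCC4 (r = 0.96) and S100A9 (r = 0.95) were most like RB1, and KCTD6 and NFU1 (both r = 0.93) most like SPOP.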

How the data were processed

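The authors deposited whole-number read counts per gene for 34 libraries. The submitters' processing notes name STAR, HTSeq and hg19, without versions or roles, and the strand setting and the gene annotation are not stated in any source used here. From these counts, library sizes were scaled by TMM, genes were kept with filterByExpr (minimum count 10), and lines were compared within each condition by edgeR 4.0.16's quasi-likelihood test (R 4.3.3) in 1 fit of all 34 libraries in 17 groups, with no covariate (17323 genes, 17 residual degrees of freedom). Conditions within a line were compared in a fit of that line's libraries (13626 to 15614 genes, 4 or 5 residual degrees of freedom). P-values were adjusted by Benjamini-Hochberg over all genes tested. CPM use TMM library sizes over all 34 libraries, and mean ± SE of a log2 difference comes from the fit. The 95% intervals use the fit's total degrees of freedom, the residual ones plus those gained by sharing the spread across genes.

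Groups came from the sample titles. Depth was 15440141 to 44779246 counted reads, and no replicate pair agreed within sampling noise. The named genes are the 7, their 3 nearest protein-coding neighbours on each side in a RefSeq GRCh38.p14 table (some neighbours are not reported here), the 2 genes with the highest correlation to each, and genes of 5 lists (mismatch repair partners, pocket protein and E2F genes, E2F targets, CHD remodellers and elongation partners, CUL3 ligase), plus PMS2-like pseudogenes and marker genes of basal, luminal, VCaP, liver, leukocyte and fibroblast cells. Genes and lists were chosen with earlier results of these data known. Alternatives tried were DESeq2 1.42.0, its RLE size factors in edgeR, no count filter, a replicate block, another set of libraries in the fit, a minimum log2 change of 1 and leaving out each library. The test was tried on simulated counts with known changes. Sequences are RefSeq's, and shared runs of 50 bases were counted in GENCODE 29 transcripts.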

Additional observations from a re-analysis of the deposited data

How the results depend on the processing

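No called difference of the 7 genes reversed under any alternative tried, while some differences that did not pass changed sign. Asking for a log2 change of at least 1 left 9 of the 24 calls on plastic in control medium, 4 of 13 on ACP in control medium, 6 of 10 on plastic in stripped medium, 6 of 14 on ACP in stripped medium and 14 of 26 on ACP with androgen. Leaving out 1 library gave 20 to 25, 11 to 13, 7 to 10, 11 to 14 and 23 to 26 calls in those conditions, 0 in each of the 3 comparisons within tumour lines, and 0 to 2 in RWPE with androgen. ACP against plastic gave 1 call with no count filter and 1 with DESeq2, and in a fit of all libraries stripping gave 1 and RWPE with androgen 2. Over all genes, calls for ACP against plastic went from 898 to 2148 with no filter, 1943 with DESeq2 and 369 in the fit of all libraries, calls for stripping from 915 to 2659, 2152 and 1662, and calls in RWPE with androgen from 2730 to 0 without either control library and 6102 without the third androgen library. With 2 libraries a group, the spread is borrowed from other groups, and the 29 of 87 calls lost without 1 library are limited by that number.

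Whether replicate numbers pair the libraries is not settled by these data. Deviations of same-numbered libraries correlated above 0.1 in 0 of 3 pairs of groups in RWPE and 3 of 10 in LNCaP. The counts were 2 of 6 in VCaP and 2 of 6 in MDAPCa2a. Values of r ran from -0.15 to 0.07 in RWPE and from -0.22 to 0.45 in LNCaP. They ran from -0.47 to 0.26 in VCaP and from -0.40 to 0.58 in MDAPCa2a. The highest was between MDAPCa2a on ACP with androgen and on ACP in stripped medium. With the replicate block the calls numbered 26, 13, 10, 14 and 27 between lines, 0 for androgen, 1 for surface, 0 for stripping and 2 in RWPE, where calls over all genes went from 2730 to 5741.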
